A study of Mus musculus with 16 samples.

Results

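Chromatin-associated RNA was compared between mouse embryonic stem cells that ectopically expressed KDM4A without its intrinsically disordered region (IDR) and cells that expressed KDM4B without its IDR. These 4 libraries, 2 for each protein, were chosen by their labels from the 16 of the series. The cells were E14TG2a, a male embryonic stem cell line, kept with LIF at 1000 U per ml, the MEK inhibitor PD0325901 at 1 µM and the GSK3 inhibitor CHIR99021 at 3 µM. The titles write the deletion as del-cIDR and the genotype labels as del-IDR, and neither says which residues were removed or whether the same stretch is missing from both proteins. No library lacked a construct, so the difference between the paralogs is known only relative to each other. The 4 libraries of full-length KDM4A and full-length KDM4B, 2 each, served to ask whether the paralogs differed in the same way with the IDR. How the construct was delivered, which species its sequence came from and whether each library is a culture of its own are not given in the sources used here, so p-values measure only the spread between these libraries, which may be technical.

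KDM4A and KDM4B are paralogous demethylases whose catalytic JmjC domain removes methyl groups from lysine 9 and lysine 36 of histone H3. Methylated lysine 9 marks silent chromatin, including retrotransposons and developmentally silent genes, while methylated lysine 36 marks transcribed gene bodies. An intrinsically disordered region is a stretch of protein without a fixed fold. RNA that stays with chromatin holds nascent transcripts, introns, noncoding RNA and RNA from repeats, so it reads transcription more directly than messenger RNA from whole cells does.

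The libraries held 32739117 to 46508040 reads over genes in the IDR-deleted pair, and 36625987 to 48284314 in the full-length pair. Levels below are CPM, reads per 1000000 reads of the library, after TMM scaling, log2 differences are KDM4A minus KDM4B with their standard error, and "higher" or "lower" as a call means an adjusted p under 0.05 in edgeR's quasi-likelihood fit of all 16 libraries. On the first axis of a multidimensional scaling of all 16 libraries the IDR-deleted KDM4A libraries lay at -1.67 and -1.66, next to the 4 KDM6B libraries at -1.71 to -1.56, and the IDR-deleted KDM4B libraries both lay at 0.07. The 2 libraries of a group correlated at 0.995 for KDM4A and 0.996 for KDM4B (log2 CPM, across genes, which are not independent replicates). All 12 embryonic stem cell markers were present, with a summed level of 2636 to 2702 CPM in the IDR-deleted KDM4A libraries and 2058 to 2147 CPM in the IDR-deleted KDM4B libraries.

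Several measures of the library differed between the groups, and no group overlapped the other on them. Repeat copies drew 60.9 and 62.1 reads per 100 gene reads in the IDR-deleted KDM4A libraries, and 83.1 and 84.5 in the IDR-deleted KDM4B libraries. Copies outside gene spans drew 11.52 and 11.37 reads per 100 gene reads against 15.98 and 14.92. Both measures were thus lower in both KDM4A libraries, while 34569 and 34227 genes were detected against 36582 and 37178. ERCC spike-in RNA made up 1.11% and 1.05% of gene and ERCC reads against 0.679% and 0.692%. The 4 KDM6B libraries, at 50.1 to 59.7 repeat reads per 100 gene reads and 1.14% to 1.53% ERCC, lay on the same side as IDR-deleted KDM4A. With 2 libraries against 2, an exact two-sided permutation test cannot give a p below 0.33, so these differences are larger than the spread between libraries but were not tested further.

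**Figure D1:**
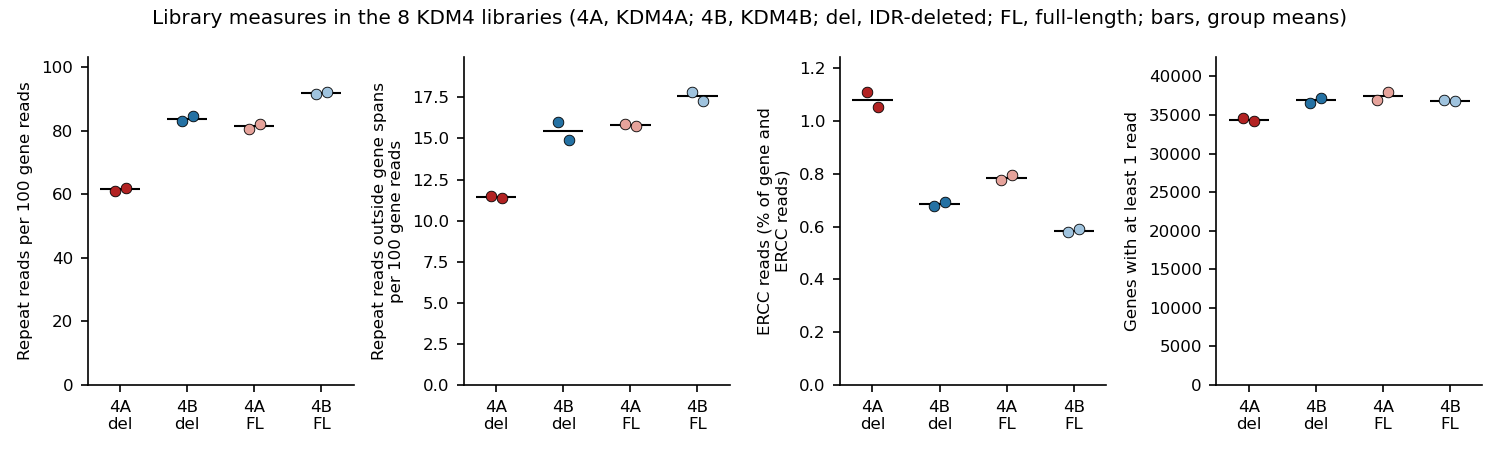
Library measures (vertical axes: reads per 100 gene reads, percent, or genes with at least 1 read) for the 8 KDM4 libraries by group; points are libraries and bars group means. The IDR-deleted KDM4A libraries sit at 60.9 and 62.1 repeat reads per 100 gene reads, below the 83.1 and 84.5 of IDR-deleted KDM4B, and have the highest ERCC share of the 4 groups, 1.11% and 1.05%.

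With libraries scaled by ERCC reads in place of TMM, the median log2 difference over all genes moved from -0.05 to -0.97, so that gene RNA as a whole was lower relative to the spike-in in the IDR-deleted KDM4A libraries. The labels do not mention ERCC RNA or the step at which it was added. TMM values are therefore relative to the bulk of genes, and the ERCC value is given beside each gene group whose direction it turns.

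Reads over the demethylase genes themselves separated the groups only in part. Kdm4a was at 300 and 292 CPM in the libraries labelled IDR-deleted KDM4A, and at 211 and 198 CPM in those labelled IDR-deleted KDM4B. This is higher by 0.53 ± 0.04 (edgeR adjusted p = 4.63e-13), although the difference was -0.39 with ERCC scaling. The 8 libraries labelled with KDM6A or KDM6B reached 272 CPM for Kdm4a, close below that level. In the libraries labelled full-length KDM4A, Kdm4a was at 217 and 206 CPM, within the 165 to 272 CPM of those 8. An added KDM4A transcript was thus not visible in the full-length KDM4A libraries. Kdm4b was at 82.7 and 80.6 CPM against 92.4 and 85.5 CPM, a difference of -0.12 ± 0.07 that did not pass the test (edgeR adjusted p = 0.134), though it did with the 4 libraries fitted alone (-0.14, edgeR adjusted p = 0.039). Its level in the libraries labelled KDM4B also lay within the 74.9 to 103 CPM of the KDM6 libraries, so an added KDM4B transcript was not visible in these counts. Kdm6a, in contrast, reached 415 to 441 CPM in the libraries labelled KDM6A and at most 156 CPM in the other 12. The source of these added reads was not tested. Reads of a construct and of the endogenous gene cannot be told apart in the counts, and the KDM4A and KDM4B groups are named here as labelled.

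The other members of the family differed little. Kdm4c was at 238 and 243 CPM against 196 and 210 CPM, higher by 0.24 ± 0.04 (edgeR adjusted p = 7.71e-06), with -0.67 under ERCC scaling. Kdm4d was close to 1 CPM or lower (0.845 and 0.617 against 1.03 and 0.542) and its difference of -0.10 ± 0.42 did not pass the test (edgeR adjusted p = 0.877). Kdm6a was lower (-0.30 ± 0.04), at 97.3 and 97.7 against 119 and 121 CPM. Kdm6b, at 81.4 and 70.8 against 76.7 and 71.0 CPM, did not pass.

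Across all genes the 2 IDR-deleted paralogs gave widely different profiles. Of 31057 genes tested, 14176 (45.6%) passed the threshold, 7143 (23.0%) higher and 7033 (22.6%) lower with KDM4A. Among genes that also differed by at least 2-fold the balance was uneven, with 1130 (3.64%) higher and 2890 (9.31%) lower. With ERCC scaling the split was 295 higher and 21704 lower. The libraries of the 2 groups did not overlap for 70.9% of the genes tested, which is the background for every such statement below.

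The genes with the highest ratios for IDR-deleted KDM4A were not of 1 kind. Rgcc, a cell cycle regulator that responds to complement, was at 10.8 and 10.5 CPM against 1.37 and 1.28 CPM, a log2 difference of 3.01 ± 0.19. Tie1, an endothelial receptor tyrosine kinase, was at 1.57 and 1.78 CPM against 0.253 and 0.141 CPM (3.08 ± 0.47), and Efnb1, the ligand ephrin-B1, at 9.06 and 7.54 against 1.71 and 1.75 CPM (2.26 ± 0.20). In all 3 both KDM4A libraries lay above both KDM4B libraries. Gadd45g, a growth arrest and DNA damage gene, was at 17.7 and 16.9 CPM against 3.56 and 3.81 CPM, and its relative Gadd45b at 36.3 and 32.2 against 9.45 and 9.78 CPM. Sox9, a transcription factor of cartilage and gonad that Polycomb holds silent in stem cells, was at 4.83 and 5.04 CPM against 0.949 and 1.16 CPM (2.22 ± 0.28). All of these stayed higher with ERCC scaling, at 0.91 (Gadd45b) to 2.16 (Tie1).

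Among well-expressed genes, Txnip, an inhibitor of thioredoxin and of glucose uptake, was at 532 and 548 CPM with IDR-deleted KDM4A and at 159 and 162 CPM with IDR-deleted KDM4B (1.75 ± 0.04, edgeR adjusted p = 7.49e-28). Peg10, an imprinted gene of retrotransposon origin needed in the placenta, was at 154 and 150 CPM against 38.1 and 41.7 CPM (1.93 ± 0.05). Aqp3, a water and glycerol channel, was at 79.4 and 76.0 CPM against 19.9 and 20.2 CPM. These genes also separated the full-length groups in the same direction, with differences of 0.80 for Txnip, 0.69 for Peg10 and 0.80 for Aqp3. Myo7a, an unconventional myosin, Cotl1, an actin binding protein, and Actn2, an alpha-actinin, were higher by 2.01 ± 0.11, 1.87 ± 0.12 and 1.84 ± 0.10.

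The genes that were lowest relative to KDM4B included receptor and transporter genes. Slco1c1, a thyroid hormone transporter of the brain, was at 3.81 and 4.76 CPM with IDR-deleted KDM4A and at 41.6 and 44.6 CPM with IDR-deleted KDM4B (-3.34 ± 0.08, edgeR adjusted p = 6.2e-29). Olfr836, an olfactory receptor gene, was at 1.60 and 2.29 CPM against 19.8 and 20.8 CPM (-3.40 ± 0.12), and Vmn2r79, a vomeronasal receptor gene, at 0.320 and 0.274 against 3.48 and 4.01 CPM (-3.64 ± 0.24). In each the groups were far apart, while the full-length libraries had still more reads: 34.1 to 68.1 CPM for Olfr836 and 72.2 to 278 CPM for Slco1c1. V1ra8, a vomeronasal receptor gene, had 8 reads in the 2 KDM4A libraries together and 171 in the 2 KDM4B libraries. Gpr34, a receptor of microglia, had 6 and 101 reads. Receptor genes of these families have close relatives, and the counting left out reads that matched several places, so a single receptor's count is uncertain.

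Among genes that reached at least 20 CPM, Pde3a, a cyclic nucleotide phosphodiesterase, was at 5.13 and 3.12 CPM against 28.0 and 29.5 CPM (-2.78 ± 0.14). Hpgds, a prostaglandin D synthase, was at 13.1 and 11.8 CPM against 57.6 and 63.2 CPM (-2.28 ± 0.09), and Slc7a3, an arginine transporter, at 6.90 and 8.05 against 34.4 and 35.8 CPM (-2.23 ± 0.10). Trpc5, a cation channel, was lower at -1.96 ± 0.08 and Sox2ot, the noncoding transcript that spans Sox2, at -2.01 ± 0.09; strand was not used in counting, so reads of Sox2 and Sox2ot cannot be told apart. Each of these 5 genes was also lower in full-length KDM4A than in full-length KDM4B, with -2.01 for Pde3a, -0.98 for Hpgds, -0.62 for Slc7a3, -0.74 for Trpc5 and -0.48 for Sox2ot.

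**Figure D2:**
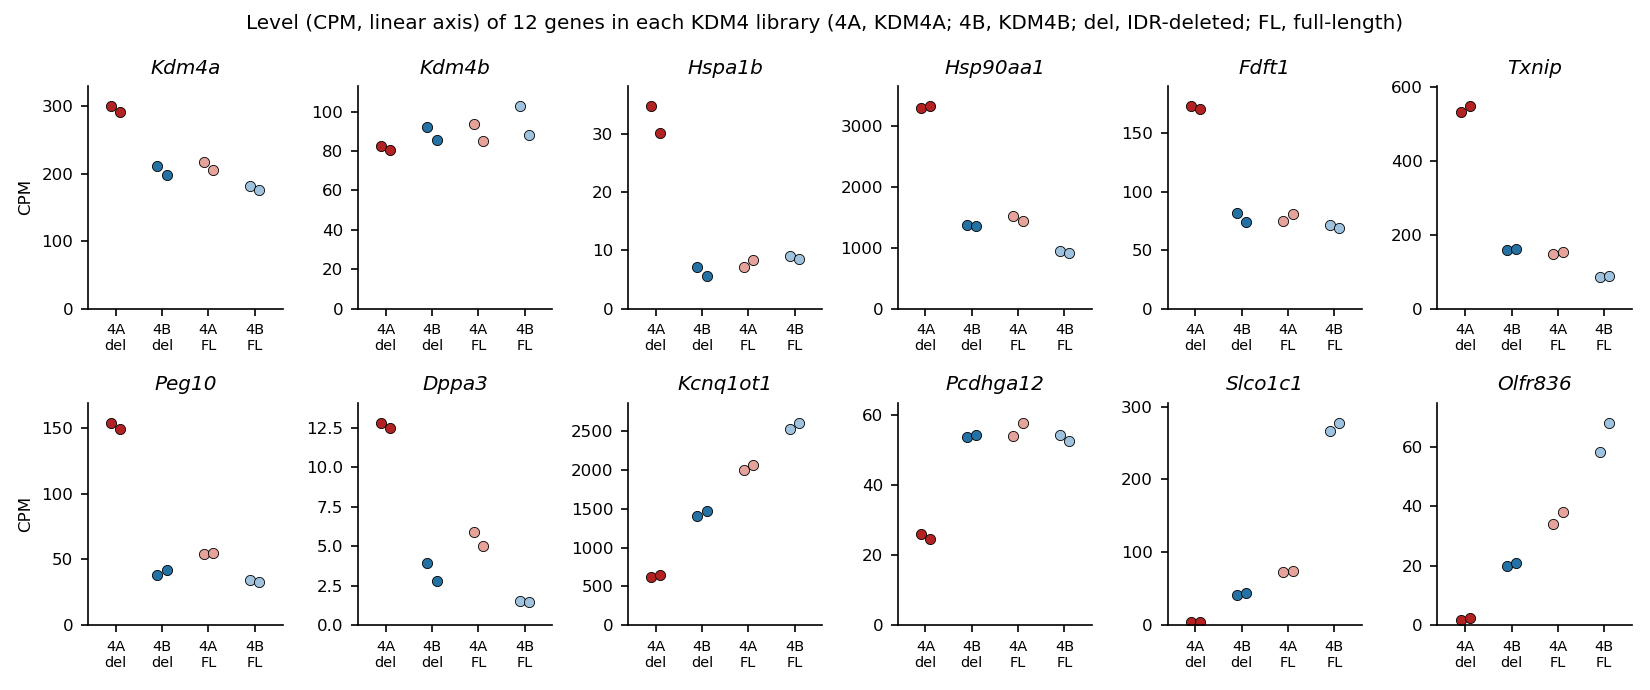
Level (CPM, vertical axes from 0) of 12 genes in each of the 8 KDM4 libraries; each point is a library. Hsp90aa1, Fdft1, Txnip and Peg10 stand highest in both IDR-deleted KDM4A libraries, Kcnq1ot1, Pcdhga12, Slco1c1 and Olfr836 stand lowest there, and Kdm4b differs little between the 4 groups.

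Gene groups were described by lists. Each count of members is to be read against the 23.0% higher and 22.6% lower of all genes tested and their median of -0.05. Counts of the full-length pair are to be read against its own 13.5% higher and 10.8% lower. Shares of the IDR-deleted pair also went with class and level: 36.9% of protein-coding genes were higher and 20.4% lower. Of protein-coding genes with a mean of 49.1 CPM and above, 64.5% were higher and 16.4% lower. A list share above 23.0% can thus reflect the class and level of its members, which was not tested. Of 12 KDM4 family and other lysine 9 demethylase genes, 7 (58.3%) were higher and 0 lower, with a median difference of 0.17 (-0.75 with ERCC scaling). Kdm3a, a lysine 9 demethylase induced by low oxygen, was at 555 and 543 CPM against 380 and 373 CPM. Kdm1b, an oocyte demethylase of lysine 4 that the list also holds, was at 103 and 99.3 against 70.3 and 67.4 CPM. Of 26 genes for lysine 9 methylation, HP1 proteins and the HUSH complex, 14 (53.8%) were higher and 6 (23.1%) lower (median 0.13, and -0.79 with ERCC scaling). Mphosph8, a HUSH subunit that binds methylated lysine 9, was at 226 and 244 CPM against 113 and 126 CPM (0.97 ± 0.05). Uhrf1, which couples lysine 9 methylation to maintenance of DNA methylation, was higher by 0.61 ± 0.04.

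Of 20 writers and readers of lysine 36 methylation, 10 (50%) were higher and 4 (20%) lower. Of all genes 23.0% were higher and 22.6% lower, of protein-coding genes 36.9% and 20.4%, and of those at 49.1 CPM and above 64.5% and 16.4%. The median of the 20 was 0.10 (-0.82 with ERCC scaling). Setd2, which writes trimethylated lysine 36, was at 828 and 806 CPM against 564 and 573 CPM (0.52 ± 0.03). Nsd1, which writes the dimethylated form, was at 754 and 750 CPM against 1152 and 1152 CPM (-0.62 ± 0.03). Setd3, now known as an actin histidine methyltransferase, was higher by 0.76 ± 0.05. The groups did not overlap for 17 of the 20 genes, against the background of 70.9%.

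Markers of the stem cell state were split. Of 24 naive pluripotency genes, 11 (45.8%) were higher and 5 (20.8%) lower, with a median of 0.16 (-0.76 with ERCC scaling). Of all protein-coding genes 36.9% were higher and 20.4% lower. Dppa3, a maternal factor that protects DNA methylation in the early embryo, was at 12.8 and 12.5 CPM against 3.92 and 2.79 CPM (1.92 ± 0.15). Tfcp2l1, a naive-state transcription factor, was at 804 and 797 CPM against 469 and 458 CPM (0.79 ± 0.03), whereas Tbx3 was at 147 and 136 against 207 and 199 CPM (-0.52 ± 0.04). Of 10 core pluripotency genes, 6 (60%) were higher and 3 (30%) lower (median 0.23, and -0.70 with ERCC scaling). Among them Pou5f1, the gene of OCT4, was at 94.0 and 92.1 CPM against 60.0 and 59.5 CPM. Of 20 formative and primed epiblast genes, 11 (55%) were higher and 6 (30%) lower (0.35, and -0.57 with ERCC scaling). Dnmt3b, a de novo DNA methyltransferase, was at 107 and 98.7 CPM against 59.6 and 56.0 CPM.

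Genes of several lineages had more members higher than lower with IDR-deleted KDM4A. Of 16 trophectoderm genes 14 (87.5%) were higher and 1 (6.25%) lower, with a median of 0.99. This median alone among the groups with a positive one stayed above 0 with ERCC scaling, at 0.07. Tfap2c, a transcription factor of trophoblast and germ cells, was at 39.05 and 42.4 CPM against 13.3 and 14.2 CPM (1.56 ± 0.09). Of 68 Polycomb-bound developmental regulators 25 (36.8%) were higher and 4 (5.88%) lower (median 0.68, and -0.23 with ERCC scaling). Their share higher is close to the 36.9% of all protein-coding genes, of which 20.4% were lower. Gata2 was at 8.82 and 8.66 CPM against 3.46 and 3.23 CPM, while Tbx20, a heart factor, was at 6.44 and 5.99 against 12.9 and 12.9 CPM. Primitive endoderm genes were higher in 11 (52.4%) and lower in 3 (14.3%) of 21 (0.62, and -0.30 with ERCC scaling). Mesendoderm genes were higher in 7 (38.9%) and lower in 3 (16.7%) of 18 (0.59, and -0.33), also near the shares of protein-coding genes. Neural genes were higher in 4 and lower in 2 of 19 (0.15, and -0.77). The neural share of 21.1% higher is close to the 23.0% of all genes and its 10.5% lower is under the 22.6%. Col4a2, a basement membrane collagen, was at 228 and 222 CPM against 121 and 110 CPM, and Axin2, a target of WNT signalling, at 15.3 and 15.2 against 7.36 and 6.32 CPM. Axin2 was higher by 1.16 ± 0.13.

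Fibroblast genes were higher in 6 and lower in 0 of 12 (median 0.61, and -0.31 with ERCC scaling), led by the matrix protease Mmp2 at 52.6 and 46.4 CPM against 21.9 and 21.2 CPM. The 10 fibroblast markers summed to 77.0 to 84.5 CPM with IDR-deleted KDM4A and 37.0 to 39.4 CPM with IDR-deleted KDM4B. Of the 6 markers that could be tested, 3 were higher and 0 lower (median 0.75), where 23.0% and 22.6% of all genes were. Dcn and Lum had 0 reads in all 4 libraries, and 6 of the 10 were under 1 CPM. The 9 primitive endoderm markers summed to 915 to 942 against 660 to 699 CPM, the 8 trophectoderm markers to 73.5 to 75.9 against 39.2 to 39.5 CPM and the 8 neural markers to 144 to 152 against 117 to 118 CPM. In bulk RNA more cells of a type and more RNA per cell cannot be told apart, and the part of such cells in the gene groups above was not tested.

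Of 24 heat shock genes, which encode chaperones of protein folding, 15 (62.5%) were higher and 1 (4.17%) lower, with a median of 0.58 (-0.33 with ERCC scaling). Hsp90aa1, the inducible cytosolic HSP90, was at 3291 and 3322 CPM with IDR-deleted KDM4A and at 1371 and 1360 CPM with IDR-deleted KDM4B (1.28 ± 0.03). Hspa1b, an inducible HSP70, was at 34.8 and 30.1 CPM against 7.13 and 5.601 CPM (2.35 ± 0.12), and its neighbour and near-copy Hspa1a at 18.1 and 15.7 against 2.04 and 2.21 CPM (2.99 ± 0.17). In the full-length libraries Hspa1a was lower with KDM4A (-0.52, edgeR adjusted p = 0.0263) and Hspa1b did not pass: it was at 7.13 and 8.34 CPM with full-length KDM4A and 9.06 and 8.55 CPM with full-length KDM4B. Reads that fit both copies were not counted, so the split between Hspa1a and Hspa1b is uncertain.

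Heat shock factor binds repeats of nGAAn in promoters of these genes. The 250 bases before the start of transcription, from RefSeq on GRCm38.p6, are shown for the HSP70 pair and for Hspb1, the small heat shock protein HSP27, a member chosen after its values were seen, at 42.5 and 35.5 CPM against 21.02 and 19.94 CPM. Capitals mark a pair of inverted half-repeats, GAANNTTC, which reads the same on both strands. The Hspa1a and Hspa1b stretches share 247 of 250 bases, and the match starts 104 bases before the start in both. Hspb1 has 2 matches, starting 117 and 97 bases before it.
Hspa1a, minus strand, chr17:34972157-34972406: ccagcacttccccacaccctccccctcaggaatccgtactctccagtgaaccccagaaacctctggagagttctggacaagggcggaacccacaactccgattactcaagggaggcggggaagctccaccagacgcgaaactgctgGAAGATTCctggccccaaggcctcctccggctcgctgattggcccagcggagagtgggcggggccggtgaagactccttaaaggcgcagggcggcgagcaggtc
Hspa1b, minus strand, chr17:34959239-34959488: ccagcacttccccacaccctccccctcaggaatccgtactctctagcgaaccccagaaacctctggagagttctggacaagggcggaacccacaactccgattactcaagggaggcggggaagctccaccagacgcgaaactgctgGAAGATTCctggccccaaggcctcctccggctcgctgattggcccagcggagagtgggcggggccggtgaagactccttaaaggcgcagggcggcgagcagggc
Hspb1, plus strand, chr5:135887669-135887918: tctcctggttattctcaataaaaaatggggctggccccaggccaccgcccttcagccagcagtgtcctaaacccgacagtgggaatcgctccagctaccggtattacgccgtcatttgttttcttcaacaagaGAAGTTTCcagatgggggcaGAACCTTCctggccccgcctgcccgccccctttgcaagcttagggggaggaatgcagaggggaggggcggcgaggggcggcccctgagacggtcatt

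The pair occurred in 8 of the 20 heat shock genes with a promoter entry, and in 6.69% of all 32851 promoter windows of the same length. A match is a description of the letters and not a bound site. Of the 8 genes, Dnaja1 and Dnaja4 did not pass the test, with differences of 0.01 and 0.04, so a match was found in members that passed and in members that did not.

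The ATF4 and unfolded protein response list had 20 genes (57.1%) higher and 9 (25.7%) lower of 35 (median 0.20, and -0.72 with ERCC scaling). Its chaperones of the endoplasmic reticulum had the smallest p-values. Hsp90b1 was at 1070 and 1109 CPM against 420 and 434 CPM (1.35 ± 0.03), Calr, calreticulin, at 808 and 805 against 392 and 390 CPM (1.04 ± 0.04), and Hspa5, the chaperone BiP, at 638 and 635 against 392 and 396 CPM (0.69 ± 0.03). Each was higher in both KDM4A libraries than in either KDM4B library.

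Sterol synthesis genes were higher with IDR-deleted KDM4A in 19 of 25 and lower in 2, with a median of 0.61 (-0.31 with ERCC scaling). Fdft1, squalene synthase, was at 173 and 171 against 81.9 and 74.2 CPM (1.14 ± 0.05), and Msmo1, a sterol oxidase, at 156 and 159 against 74.4 and 74.2 CPM. These genes are known targets of SREBP factors, which bind sterol response elements. The element TCACNCCAC, on either strand, lay within 250 bases before the start in 1 of the 17 members with an entry, Hmgcs1, and in 1.05% of all promoter windows. Hmgcs1, which makes HMG-CoA and was chosen for that match after its values were seen, was at 54.6 and 59.9 CPM against 26.3 and 27.5 CPM; its upstream bases are shown with the element in capitals.
Hmgcs1, plus strand, chr13:119690101-119690350: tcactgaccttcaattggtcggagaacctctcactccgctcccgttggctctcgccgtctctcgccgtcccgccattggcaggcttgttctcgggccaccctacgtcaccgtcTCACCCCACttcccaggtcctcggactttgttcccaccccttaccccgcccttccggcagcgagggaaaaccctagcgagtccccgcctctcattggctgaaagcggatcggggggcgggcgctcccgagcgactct

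Hypoxia-induced genes were higher in 28 of 33 and lower in 0, with a median of 0.55 (-0.37 with ERCC scaling). Vegfa, the vascular growth factor, was at 265 and 268 CPM against 145 and 149 CPM (0.86 ± 0.04), and Ldha, lactate dehydrogenase A, at 147 and 147 against 77.1 and 76.0 CPM (0.94 ± 0.04). In the full-length libraries 22 of the 33 were higher and 1 lower, where 13.5% and 10.8% of all genes were. Of 30 p53 target genes 16 were higher and 3 lower (0.21, and -0.71 with ERCC scaling). Mdm2, the ubiquitin ligase of p53, was at 497 and 516 CPM against 293 and 313 CPM, and Pmaip1, the death factor NOXA, at 27.0 and 23.4 against 10.9 and 10.7 CPM. Of 29 ERK-induced genes, which the MEK inhibitor in the medium keeps low, 13 (44.8%) were higher and 5 (17.2%) lower (0.44, and -0.48 with ERCC scaling). Jun was at 32.9 and 28.1 CPM against 14.5 and 13.9 CPM. Interferon-stimulated genes had 8 (25.0%) higher and 5 (15.6%) lower of 32, against 23.0% and 22.6% of all genes, with a median of 0.05 (-0.87 with ERCC scaling).

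Genes of growth and division were mostly higher. Of 89 ribosomal protein genes 70 were higher and 7 lower, with a median of 0.64 (-0.28 with ERCC scaling), and full-length KDM4A had 77 higher and 1 lower (0.46). The difference of the 2 differences was positive for 37 (41.6%) and negative for 9 of the 89, where 15.4% and 15.6% of all genes were. Rplp1 was at 358 and 379 CPM against 160 and 152 CPM, and Rplp2 at 383 and 410 against 190 and 191 CPM. These mRNAs are abundant outside the nucleus. All genes with a symbol starting mt-, which are transcribed outside the nucleus too, made up 0.357% and 0.411% of gene reads against 0.225% and 0.258%. That share counts more genes than the 13 of the mitochondrial list. Those 13 summed to 1155 to 1243 CPM against 1027 to 1112 CPM. CPM are TMM-scaled and the share is not, with TMM factors of 0.892 to 0.902 for KDM4A and 1.071 to 1.075 for KDM4B. The sums are thus not on the scale of the share, whose difference lay in other mt- genes. Of 13 mitochondrial genes 4 (30.8%) were higher and 3 (23.1%) lower, shares near the 23.0% and 22.6% of all genes, with a median of 0.03 (-0.89 with ERCC scaling): mt-Co1 was at 586 and 619 CPM against 399 and 410 CPM, and mt-Nd5 at 222 and 252 against 272 and 305 CPM. The part of carried-over cytoplasmic RNA in these groups was not tested.

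Of 30 mitotic genes 22 were higher and 4 lower (0.33, and -0.59 with ERCC scaling), with Cenpf, a kinetochore protein, at 1430 and 1454 CPM against 722 and 720 CPM. Of 66 replication-dependent histone genes 34 were higher and 4 lower (0.33, and -0.59 with ERCC scaling). Hist1h1e, a linker histone, was at 97.4 and 91.1 CPM against 47.9 and 46.4 CPM. Histone genes of 1 type are near copies, so single members are uncertain.

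Germline genes that DNA methylation silences were higher in 23 of 36 and lower in 5 (median 0.59, and -0.33 with ERCC scaling). The full-length pair gave 23 (63.9%) higher and 2 (5.56%) lower (0.60), where 13.5% and 10.8% of all genes were. The difference of the 2 differences passed for 19 of the 36, 7 positive (19.4%) and 12 negative (33.3%), against 15.4% and 15.6% of all genes. Ddx4, a helicase of germ cells, was at 17.1 and 18.7 CPM against 5.84 and 6.20 CPM (1.57 ± 0.12), Mov10l1, a piRNA helicase, at 50.5 and 53.2 against 29.3 and 27.4 CPM, and Tex15, a factor of piRNA-directed DNA methylation, at 120 and 117 against 78.0 and 80.5 CPM. Imprinted genes were higher in 21 and lower in 9 of 41 (0.43, and -0.49 with ERCC scaling), among them Peg3 at 361 and 349 CPM against 168 and 170 CPM.

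Of 41 genes of the 2-cell-like state, 5 (12.2%) were higher and 12 (29.3%) lower with IDR-deleted KDM4A (median -0.23). Of all genes 23.0% were higher and 22.6% lower. Full-length KDM4A had 15 (36.6%) higher and 5 (12.2%) lower (median 0.32), where 13.5% and 10.8% of all genes were. Zscan4d, a marker of that state, was at 12.49 and 14.01 CPM against 26.1 and 24.9 CPM (-0.95 ± 0.08), and Zscan4e at 18.6 and 19.5 against 34.9 and 33.1 CPM (-0.84 ± 0.07). In the full-length libraries Zscan4d was at 72.6 and 71.1 CPM with KDM4A and at 89.2 and 87.8 CPM with KDM4B, so it was lower with KDM4A there too, against the lean of its list. Zscan4 genes are near-identical copies in a cluster, so the split between them is uncertain. The paralog difference itself differed with and without the IDR for 1 of the 41 genes in the positive and 21 in the negative direction, where 15.4% and 15.6% of all genes did so.

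Clustered, mostly silent genes were more often lower than higher with IDR-deleted KDM4A. Of 36 clustered protocadherin genes 1 was higher and 22 lower, with a median of -1.10 (-2.02 with ERCC scaling). Pcdhga12 was at 26.04 and 24.66 CPM against 53.8 and 54.2 CPM (-1.09 ± 0.06), and Pcdhgc4 at 9.38 and 11.5 against 31.6 and 27.9 CPM (-1.52 ± 0.09). In the full-length pair 0 of the 36 were higher and 2 (5.56%) lower, where 13.5% and 10.8% of all genes were. Protocadherins of a cluster share 3' exons, so their counts are not independent. Of 279 olfactory and vomeronasal receptor genes that passed the filter on low counts, of 1737 in the table, 5 were higher, 105 lower and 169 not called. Receptor genes that failed the filter had too few reads to be tested. A gene could pass through any group. The 279 summed to 162 CPM with IDR-deleted KDM4A, 335 with IDR-deleted KDM4B, 558 with full-length KDM4A and 930 with full-length KDM4B. The part of this filter in the split was not tested. Olfr986, the most abundant of those named, was at 7.02 and 8.02 CPM against 44.9 and 48.8 CPM (-2.64 ± 0.08).

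Chromatin-retained noncoding RNAs were lower in 13 (43.3%) and higher in 7 (23.3%) of 30 (median -0.37), the latter near the 23.0% of all genes. Kcnq1ot1, the paternally expressed silencer of the Kcnq1 domain, was at 620 and 644 CPM against 1409 and 1466 CPM (-1.19 ± 0.03, edgeR adjusted p = 8.55e-28). Tsix, the antisense transcript of Xist, was at 62.5 and 59.8 CPM against 176 and 164 CPM (-1.48 ± 0.05), and Lncenc1, a noncoding RNA of naive stem cells, at 297 and 306 against 599 and 618 CPM (-1.02 ± 0.04). Because strand was not used in counting, reads of Tsix and Xist, or of Kcnq1ot1 and Kcnq1, cannot be told apart where they overlap. The summed level of the list went the other way, at 39210 to 41600 CPM with KDM4A and 25840 to 27030 CPM with KDM4B. Most of it was Malat1, named here after its values were seen, at 33040 and 35220 against 19660 and 20660 CPM (0.76). Of 36 Hox genes 5 (13.9%) were higher and 8 (22.2%) lower, the latter near the 22.6% of all genes, and their median was -0.0038. Hoxb9 was at 4.78 and 4.01 CPM against 12.8 and 13.9 CPM (-1.60 ± 0.11). Zinc finger genes named Zfp were higher in 92 (23.7%) and lower in 148 (38.0%) of 389 (median -0.12), the former near the 23.0% of all genes.

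**Figure D3:**
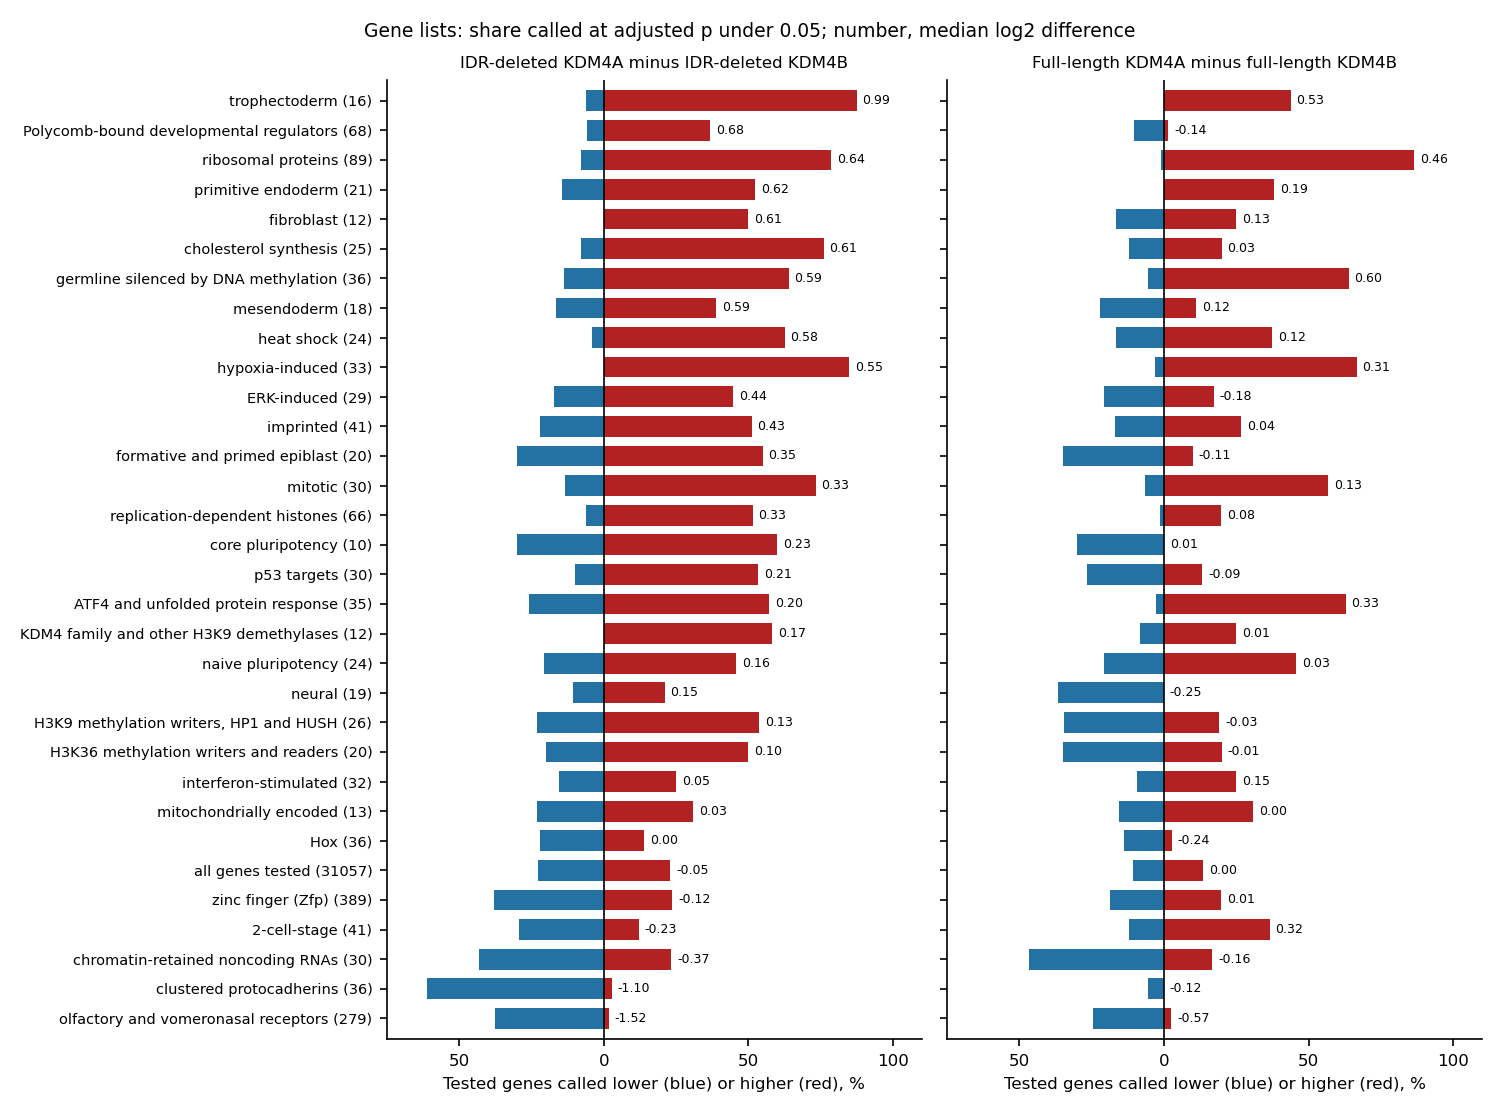
Share of the tested genes of each list (number in brackets) called higher (red, to the right) or lower (blue, to the left) in percent, for the IDR-deleted pair on the left and the full-length pair on the right, with the median log2 difference as a number. Lists run from trophectoderm at 0.99 to olfactory and vomeronasal receptors at -1.52 under TMM; with ERCC scaling the medians of the IDR-deleted pair that are positive here turn negative, except that of trophectoderm.

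Gene classes, which the lists did not use, were divided as well. Of 17290 protein-coding genes 36.9% were higher and 20.4% lower, with a median of 0.13 (-0.79 with ERCC scaling). Of 5035 long noncoding genes 4.67% were higher and 27.8% lower (median -0.40), of 3996 pseudogenes 8.26% and 21.4% (-0.34), and of 2008 loci of GENCODE's class TEC, which await experimental proof, 5.28% and 38.7% (-0.48). Level went with direction among protein-coding genes: of the 4323 genes with a mean level of 49.1 CPM and above 2787 were higher and 711 lower, and of the 4323 up to 2.31 CPM 427 were higher and 588 lower. By gene span, 29.5% were higher up to 8.89 kb and 35.6% above 54.0 kb.

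Without the IDR the paralogs differed at more genes than with it. The full-length comparison called 7537 genes (24.3%), 4189 higher (13.5%) and 3348 lower (10.8%) with KDM4A, against 14176 without the IDR. The full-length groups did not overlap for 59.4% of genes. The SD of the log2 differences across genes was 1.05 without and 0.741 with the IDR. The comparisons share no library. Across genes, which are not independent replicates, their differences correlated with Pearson's r = 0.265 and Spearman's rho = 0.327. Both called 5232 genes, 4239 of them in the same direction, which is 29.9% of the calls without the IDR and 56.2% of those with it. For 993 genes the direction was opposite.

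The difference between the 2 paralog differences was tested directly in the same fit, and it passed for 9653 genes (31.1%), 4795 in the positive and 4858 in the negative direction. Sms, spermine synthase, showed an exchange: it was at 364 and 359 CPM with IDR-deleted KDM4A against 144 and 147 CPM with IDR-deleted KDM4B, and at 155 and 161 CPM with full-length KDM4A against 274 and 269 CPM with full-length KDM4B (difference of the 2 differences 2.09 ± 0.06). Trpc6, a cation channel, went the other way, with 3.38 and 2.84 against 9.74 and 8.43 CPM without the IDR and 15.8 and 14.5 against 5.91 and 4.55 CPM with it (-3.07 ± 0.20). For Sms and Trpc6 the paralogs changed places. Aox3, an aldehyde oxidase, differed mainly with the IDR, at 23.7 and 20.8 CPM against 2.83 and 2.58 CPM, and at 6.58 and 6.92 against 8.44 and 8.73 CPM without it (-0.35, edgeR adjusted p = 0.0296, and 0.062 in DESeq2). Efhc2 was likewise at 7.64 and 8.07 against 0.806 and 0.473 CPM with the IDR, and Creb5, a CREB family factor, at 8.73 and 9.59 against 42.0 and 41.0 CPM, while neither passed the test without the IDR.

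By gene group, 18 of 68 Polycomb-bound regulators had a positive and 1 a negative difference of the 2 differences. The counts were 18 and 1 of 25 for sterol synthesis, 15 and 0 of 24 for heat shock, 15 and 0 of 30 for p53 targets, and 0 and 22 of 36 for clustered protocadherins. The background was 15.4% positive and 15.6% negative.

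**Figure D4:**
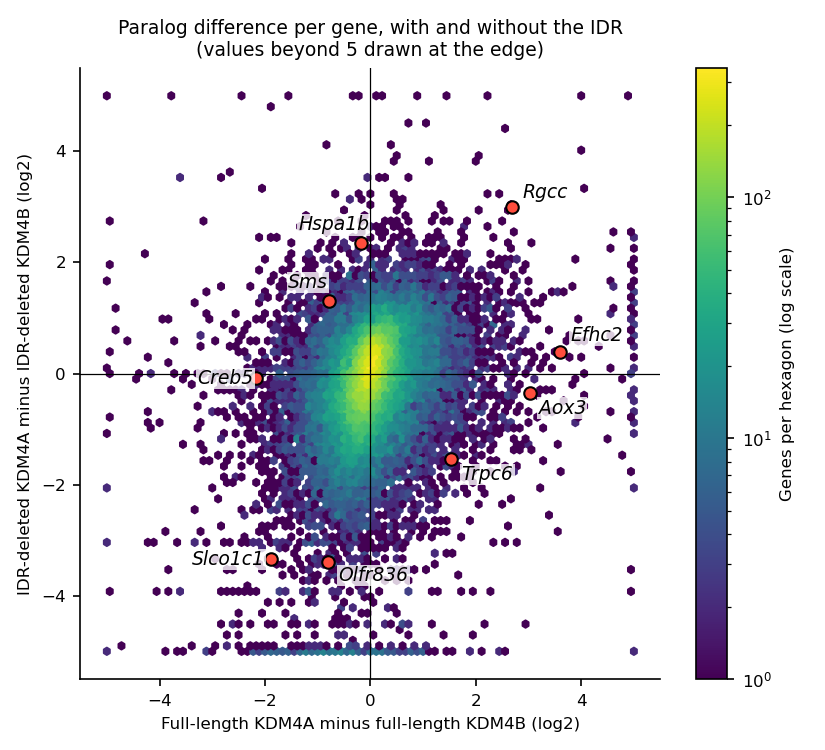
Log2 difference between KDM4A and KDM4B for each of the 31057 genes tested, full-length on the horizontal and IDR-deleted on the vertical axis; colour gives genes per hexagon on a log scale, and values beyond 5 are drawn at the edge. Rgcc (2.68 and 3.01) and Slco1c1 (-1.89 and -3.34) differ in the same direction with and without the IDR, Trpc6 (1.53 and -1.54) and Sms (-0.78 and 1.31) in opposite directions.

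Genes of chromosomes 6 and 8 leaned more to one side than those of other autosomes. Of 893 protein-coding genes tested on chromosome 8, 50.1% were higher and 13.1% lower with IDR-deleted KDM4A, and of 827 on chromosome 6, 46.4% and 16.1%, against 36.9% and 20.4% for all protein-coding genes. Relative to the mean of all 16 libraries, and to the median gene of the same library, the median gene of chromosome 8 lay at 0.08 and 0.06 (log2) in the IDR-deleted KDM4A libraries and at -0.07 and -0.08 in the IDR-deleted KDM4B libraries. The median gene of chromosome 6 lay at 0.01 and 0.03 against -0.12 and -0.10, and at 0.25 and 0.25 in full-length KDM4B, the highest values of any chromosome and library. In the full-length pair the lean of chromosome 6 was the opposite, with 90 genes higher and 255 lower with KDM4A. The largest difference between the IDR-deleted groups on another chromosome was -0.08, on chromosome 18. The number of copies of these chromosomes in each culture was not measured, and its part in the results was not tested.

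**Figure D5:**
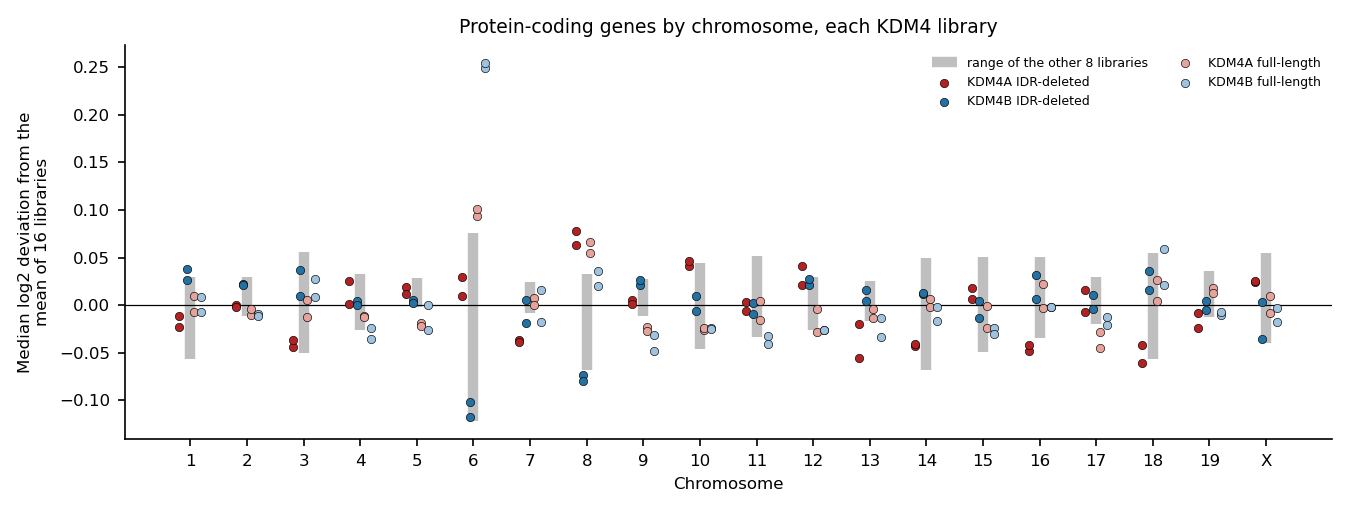
Median log2 deviation of protein-coding genes (mean of at least 5 CPM) from the mean of the 16 libraries, by chromosome, relative to the median gene of the library; points are the 8 KDM4 libraries and grey bars the range of the other 8. Full-length KDM4B stands at 0.25 and 0.25 on chromosome 6, and the IDR-deleted groups separate on chromosomes 6 and 8.

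Repeats were covered by fewer reads with IDR-deleted KDM4A, as the reads per 100 gene reads above show, and the families did not share that drop evenly. Relative to the other families, 27 of 60 (45.0%) passed the threshold, 14 higher (23.3%) and 13 lower (21.7%) with KDM4A. Scaled by gene reads in place of repeat reads, 48 of 60 (80.0%) passed, 5 higher (8.33%) and 43 lower (71.7%). In the full-length pair 4 of 60 (6.67%) passed relative to other families, all 4 higher, and 36 (60.0%) passed scaled by gene reads, 1 higher (1.67%) and 35 lower (58.3%). The difference of the 2 differences passed for 15 (25.0%), 6 positive (10.0%) and 9 negative (15.0%), and for 32 (53.3%) scaled by gene reads, 5 positive (8.33%) and 27 negative (45.0%). The direction of a family can depend on what it is compared with, so differences of the IDR-deleted pair over all copies of a family are given on both scales.

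ERVK retroviruses and L1 elements were lower on both scales when all copies were counted, while LTR/ERVL was at 0.01 relative to repeats and -0.32 relative to genes. LTR/ERVK, the family of IAP elements that lysine 9 methylation silences in stem cells, held 61370 and 61990 reads per 1000000 repeat reads against 72760 and 67900, a difference of -0.19 relative to repeats and -0.51 relative to genes. The value relative to repeats did not pass with the 4 libraries fitted alone (-0.19, edgeR adjusted p = 0.111). A single ERVK copy outside gene spans (chr17:40171229-40171594) had 202153 reads in KDM4B library 1 and 459 in KDM4B library 2. It had 308 and 440 reads in the KDM4A libraries, so part of the ERVK difference rests on 1 copy in 1 library. The same copy enters the ERVK value outside gene spans. LINE/L1 held 141400 and 143600 against 151900 and 155700 (-0.11 and -0.43). In the full-length pair neither passed relative to repeats, at -0.07 and 0.01. Of ERVK reads 72.9% and of L1 reads 75.2% lay inside gene spans. With copies outside gene spans alone, L1 turned to 0.22 relative to repeats and ERVK was at -0.15, which did not pass (edgeR adjusted p = 0.176). Both are relative to repeat reads outside gene spans, which were fewer per gene read with KDM4A. Scaled by gene reads, L1 copies outside gene spans had a median of -0.80, with 0.184% higher and 10.6% lower of 52856. All copies there had a median of -0.93, with 0.4% higher and 10.2% lower.

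Simple and low-complexity repeats were higher relative to repeats. Simple_repeat held 156900 and 156500 reads per 1000000 against 119400 and 118900 (0.40, and 0.07 relative to genes), and Low_complexity 25690 and 25960 against 20190 and 20660 (0.34, and 0.01 relative to genes). With copies outside gene spans alone, relative to repeats there, Simple_repeat was at 1.25 and Low_complexity at 0.19, which did not pass (edgeR adjusted p = 0.362). Of Simple_repeat reads 87.9% lay inside gene spans, and 1 copy (chr17:40155501-40155535) held 7.27% of all reads of the family. How far the value of 1.25 rests on copies of that stretch of chromosome 17 was not tested. The SINE families differed among themselves. SINE/B2 was higher by 0.12 relative to repeats and at -0.20 relative to genes, SINE/B4 (0.04 and -0.28) and SINE/ID (0.05 and -0.27) did not pass relative to repeats, and SINE/tRNA-RTE was lower (-0.33 and -0.66).

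Among families of structured RNA, rRNA was at 9365 and 12400 reads per 1000000 repeat reads against 2229 and 4056 (1.79, and 1.47 relative to genes), and srpRNA at 2203 and 2012 against 802 and 777 (1.42, and 1.09 relative to genes). The snRNA (0.70 and 0.37), tRNA (0.12 and -0.20) and scRNA (-0.03 and -0.35) families did not pass on either scale. The level of snRNA was 15220 and 25860 reads per 1000000 repeat reads against 8831 and 16530. In each KDM4 group snRNA and rRNA were higher in library 2 than in library 1. The fit left replicate number out, so the failed test for snRNA does not show that the groups were alike. Libraries had been depleted of rRNA, and rRNA also varied between the 2 libraries of a group: it did not pass without KDM4A library 2 (1.57, edgeR adjusted p = 0.0768) or without KDM4B library 1 (1.42, edgeR adjusted p = 0.131). In DNA/hAT-Tip100 (0.83, and 0.51 relative to genes) 1 copy held 98.4% of the reads, in srpRNA 58.1% and in Satellite/Y-chromosome (0.89, and 0.57 relative to genes) 57.5%, so these values rest largely on 1 locus each. In rRNA 1 copy (chr17:40157244-40159092) held 48.7%. It lies close to the largest copies of hAT-Tip100 (chr17:40153889-40154054) and Simple_repeat (chr17:40155501-40155535), so the values of these families are not independent. With copies outside gene spans alone, relative to repeats there, srpRNA was at -0.27 (edgeR adjusted p = 0.126) and Satellite/Y-chromosome at -0.33 (edgeR adjusted p = 0.17). Neither passed. The hAT-Tip100 value did not pass without KDM4A library 1 (0.73, edgeR adjusted p = 0.0502) or KDM4B library 2 (0.64, edgeR adjusted p = 0.0658).

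At single copies, scaled by gene reads, 91885 of 1035541 (8.87%) passed, 10513 higher (1.02%) and 81372 lower (7.86%) with IDR-deleted KDM4A. Leaving out 1 of the 4 libraries lowered the count to between 48428 (without KDM4A library 1) and 62947 (without KDM4B library 1). The median copy differed by -0.48, with -0.40 inside and -0.93 outside gene spans. In the full-length pair 9949 copies (0.961%) passed, 2390 higher (0.231%) and 7559 lower (0.73%), and the median was -0.14. Copies of L1 of at least 5 kb had a median of -0.27 and shorter ones -0.72, and ERVK copies -0.43 and -0.69. Many copies have few reads, and reads of a copy in a gene cannot be told apart from those of the gene. A copy entered with at least 5 reads in any 2 of the 16 libraries, so it could pass only through groups where it was high. The IDR-deleted KDM4A libraries held 23205927 and 20313223 repeat reads against 36669619 and 39297384. The part of this filter in the copy medians and in the split of higher and lower was not tested.

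The copies that the rule named were mostly in a stretch of chromosome 17 whose counts differed by orders of magnitude between libraries of 1 group. After these values had been seen, copies were therefore also ranked where both libraries of the higher group lay within 2-fold of each other, which 84645 of the called copies met, 9971 higher and 74674 lower. On the lower side were an L1 of 931 bases in the span of Slco1c1 (chr6:141474373-141475303, GRCm39, minus strand) with 3 and 0 reads against 103 and 111, and an intergenic L1 of 6149 bases (chr2:87411935-87418083, plus strand) with 2 and 3 reads against 116 and 129. Both had more reads still in full-length KDM4B, 870 and 676 for the first and 349 and 372 for the second. An ERVL-MaLR copy in C330002G04Rik (chr19:23025897-23026181, minus strand) had 2 and 2 reads against 109 and 119. On the higher side the first of 6 was an L1 still in the chromosome 17 stretch (chr17:40198709-40200675, minus strand) with 129 and 87 reads against 11 and 19, and 41 and 632 in the libraries of full-length KDM4A. The other 5 were 4 SINE/B2 copies and a simple repeat in the span of Pim3 with 122 and 108 reads against 28 and 21. A SINE/B2 copy between genes (chr8:61879995-61880190, plus strand) had 169 and 161 reads against 29 and 39, and 2 to 13 reads in the full-length libraries, and another (chr4:98613937-98614089, plus strand) had 105 and 102 against 20 and 18.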

How the data were processed

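Reads over genes and over single repeat copies of GRCm39 were deposited by the authors as raw counts, made with featureCounts 2.0.3 per the file headers, which record a minimum mapping quality of 30, both reads of a pair counted and strand not used. HISAT2, SAMtools and Picard are named without version in the submitters' processing notes. Ribosomal RNA was depleted before library preparation, per the labels' protocols. Of 56941 genes, 52000 matched a GENCODE M21 symbol. The 92 ERCC RNAs and 2 other spike-in entries stayed out of library sizes.

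Counts were tested with edgeR 4.0.16 (R 4.3.3): filterByExpr by group with a minimum count of 10, TMM, and a robust quasi-likelihood fit of 16 libraries and 8 group means with 8 residual degrees of freedom. P-values were adjusted by Benjamini-Hochberg over all genes, families or copies, with a threshold of 0.05. Copies needed at least 5 reads in at least 2 libraries and used the effective library sizes of genes. The fits were tested on simulated counts. Alternatives were DESeq2 1.42.0, its size factors, ERCC scaling, no filter, a replicate block, the 4 libraries alone, leaving out 1 library, and, added after the values were seen, copies with matching libraries and repeat reads without structured families. Genes named are the 6 demethylases, the largest changes at 1 and 20 CPM, up to 3 of each list with the smallest p, and the largest differences of differences at 5 CPM, of which not all are printed. The members and the 31 lists were chosen with earlier results of these data known. Totals of 32739117 to 54890756 gene reads set the precision, and 2 libraries a group limit it.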

Additional observations from a re-analysis of the deposited data

Results flagged for a closer look

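The test of whether the difference between KDM4A and KDM4B itself differed with and without the IDR passed for 9653 of 31057 genes and for 15 of 60 repeat families in edgeR's fit, and the values that follow are this difference of the 2 differences in log2. A positive value means that KDM4A stood higher against KDM4B without the IDR than with it. With ERCC scaling 737 genes were positive and 11982 negative.

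Among the genes named, the most positive values were 3.51 for Hspa1a, 2.54 for Hspa1b, 2.49 for Tie1, 2.11 for Creb5, 2.09 for Sms, 1.73 for Gadd45g, 1.61 for Gadd45b and 1.60 for Axin2. Next came 1.59 for Efnb1, 1.36 for Myo7a, 1.24 for Peg10, 1.21 for Cotl1, 1.15 for Aqp3, 1.13 for Gata2, 1.09 for Pmaip1 and 1.07 for Hsp90b1. Lower down were 1.01 for Jun, 1.00 for Ddx4, 0.99 for Fdft1, 0.95 for Txnip, 0.88 for Peg3, 0.88 for Msmo1 and 0.86 for Mdm2. These were followed by 0.82 for Calr, 0.79 for Kdm3a, 0.79 for Dnmt3b, 0.76 for Setd3, 0.72 for Tfap2c, 0.67 for Mphosph8, 0.60 for Hsp90aa1 and 0.58 for Ldha. Then came 0.56 for Uhrf1, 0.54 for Kdm1b, 0.54 for Cenpf, 0.51 for Tfcp2l1, 0.50 for Pou5f1, 0.47 for Mmp2, 0.43 for Hist1h1e and 0.42 for Rplp2. The least positive were 0.41 for Col4a2, 0.37 for Rplp1, 0.36 for Hspa5, 0.34 for mt-Co1, 0.29 for Kdm4a, 0.28 for Setd2, 0.23 for Kdm4c and 0.19 for Tex15.

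The most negative values were -4.27 for V1ra8, -3.38 for Aox3, -3.21 for Efhc2, -3.07 for Trpc6, -2.98 for Vmn2r79, -2.75 for Gpr34, -2.59 for Olfr836 and -2.10 for Olfr986. Less far from 0 were -1.62 for Slc7a3, -1.53 for Sox2ot, -1.45 for Slco1c1, -1.35 for Hoxb9, -1.30 for Hpgds, -1.24 for Pcdhgc4, -1.22 for Trpc5 and -1.15 for Pcdhga12. After these came -0.96 for Tsix, -0.85 for Kcnq1ot1, -0.83 for Lncenc1, -0.77 for Pde3a, -0.65 for Zscan4d, -0.55 for Zscan4e, -0.52 for Tbx3 and -0.48 for Nsd1. Closer to 0 were -0.43 for mt-Nd5 and -0.17 for Kdm6a.

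Among the repeat families named, relative to other families, the values were 0.93 for srpRNA, 0.75 for Satellite/Y-chromosome, 0.34 for SINE/tRNA, 0.28 for Simple_repeat, 0.24 for Low_complexity, -0.12 for LTR/ERVK, -0.17 for DNA, -0.32 for RC/Helitron and -0.40 for SINE/tRNA-RTE. With 2 libraries in a group no sample could be tested for standing apart from its group.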

How the results depend on the processing

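Scaling by ERCC reads moved the counts most: 21999 genes passed without the IDR (295 higher, 21704 lower) and 15616 with it, 57 repeat families (1 higher, 56 lower), 54 with the IDR and 51 for the difference of the 2 differences, and 386455 copies (872 higher, 385583 lower). The same scaling turned Kdm4a to -0.39, Kdm4c to -0.67, Kdm6b to -0.88, Kdm3a to -0.38, Kdm1b to -0.37, Uhrf1 to -0.31, Setd2 to -0.40, Setd3 to -0.16, Tfcp2l1 to -0.13, Pou5f1 to -0.28, Dnmt3b to -0.093, Tex15 to -0.34, Mov10l1 to -0.050, mt-Co1 to -0.34, Mdm2 to -0.18, Vegfa to -0.060, Hspa5 to -0.23 and Efhc2 to -0.52. It turned DNA/hAT-Ac to -0.95, DNA/hAT-Tip100 to -0.41, Low_complexity to -0.90, SINE/tRNA to -0.82, Satellite/Y-chromosome to -0.35 and Simple_repeat to -0.85. List medians turned to -0.75 for lysine 9 demethylases, -0.79 for lysine 9 writers, -0.82 for lysine 36, -0.76 for naive, -0.70 for core and -0.57 for formative pluripotency, -0.23 for Polycomb, -0.30 for primitive endoderm, -0.33 for mesendoderm, germline and heat shock, -0.77 for neural, -0.31 for fibroblast and cholesterol, -0.49 for imprinted, -0.89 for mitochondrial, -0.48 for ERK, -0.71 for p53, -0.37 for hypoxia, -0.72 for ATF4, -0.59 for mitotic and histone, -0.87 for interferon and -0.28 for ribosomal protein genes. The cause was not tested.

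With effective library sizes of genes, 48 families passed (5 higher, 43 lower), 36 with the IDR and 32 for the difference of the 2 differences, and DNA/hAT-Ac turned to -0.037. Copies outside gene spans gave 15 families (9 higher, 6 lower), 7 for the difference of the 2 differences and 23635 copies (962 higher, 22673 lower), and turned DNA/TcMar-Tc1 to 0.23, DNA/hAT-Ac to -0.63, SINE/tRNA to -0.76, Satellite/Y-chromosome to -0.33 and srpRNA to -0.27. The 4 libraries alone gave 8 families lower. Without structured RNA families and hAT-Tip100 the ratio of repeat reads per 100 gene reads, KDM4A over KDM4B, moved from 0.734 to 0.70. The Hox median, just under 0, was 0.0093 with DESeq2 and 0.0092 with median-ratio size factors.

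Leaving out 1 library gave 12032 to 12353 genes without the IDR (5791 to 6325 higher, 5878 to 6241 lower), 5210 to 5541 with it, 8188 to 8753 for the difference of the 2 differences, 22 to 26 families and 48428 to 62947 copies (5743 to 6265 higher, 42685 to 57075 lower). It moved Kdm6b between -0.097 and 0.135, Kdm4d between -0.49 and 0.43, the mitochondrial median between -0.025 and 0.101 and the interferon median between -0.017 and 0.128. With replicate number as a block 14660 genes, 32 families (18 with the IDR, 18 for the difference of the 2 differences) and 95617 copies passed, and Kdm4b passed. The labels do not say that a number marks a shared culture, and deviations of same-numbered libraries correlated at 0.29 to 0.30 across genes. Low counts of single copies limit what 2 libraries a group can show.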
